A study of Homo sapiens with 36 samples.

Results

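The type 17 genes described here are 9 of the 60628 genes in a deposited table of RNA-seq counts: the cytokine genes IL17A, IL17F, IL22 and IL26, the transcription factor genes RORA, AHR and BATF, and the receptor genes IL23R and CCR6. They were picked by gene symbol, and each symbol matched a single row. T helper 17 (Th17) cells make interleukin 17 cytokines under nuclear receptors of the ROR family, among them RORα (the product of RORA), with STAT3, BATF and IRF4 acting upstream and interleukin 23 maintaining the state. Interleukin 17A and 17F signal to epithelial and stromal cells and draw in neutrophils, while interleukin 22 and interleukin 26 belong to the interleukin 10 family. GATA3 is the transcription factor of the T helper 2 programme, which in normal T cells is an alternative to the Th17 programme.

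GATA3 was targeted with a short hairpin RNA in 7 human T cell neoplasm lines, and each line was set against its own cells with a scrambled hairpin, which the labels call wild type. The medium of all lines was RPMI with 10% fetal bovine serum, and polyadenylated RNA was sequenced. The cutaneous T cell lymphoma (CTCL) lines were H9 (3 knockdown and 2 control libraries), MyLa (3 knockdown, 3 control) and Mac1 (2 knockdown, 2 control). Lines of T cell acute lymphoblastic leukaemia (T-ALL) were SUP-T1 (3 knockdown, 3 control), CCRF-CEM (3 knockdown, 3 control), MOLT4 (2 knockdown, 2 control) and THP6 (2 knockdown, 3 control). The labels do not tie the libraries of a group to separate cultures. The p-values therefore reflect variation among libraries, which may be technical. Each group is a cell line grown in culture, and the hairpin sequence, the number of hairpins and the number of clones are not named in the labels.

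Libraries held 18.62 M to 50.63 M counts. Levels are given as CPM, counts scaled to the library total after its adjustment by the TMM factor of that library. They therefore differ from counts scaled to the library total alone. GATA3 was lower in the knockdown libraries of 6 lines, for example 40.8 CPM in Mac1 knockdown cells and 90.3 CPM in Mac1 controls. In SUP-T1 the libraries labelled knockdown held more GATA3 (81.7 CPM) than those labelled control (24.1 CPM), so its directions are given by label only. Of 11 T cell markers, CD3D, CD3E, CD3G, TRBC1 and LCK had 0 counts in all 4 Mac1 libraries, while CD2 stood at 158 to 178 CPM and CD247 at 76.4 to 113 CPM there. In THP6, knockdown 2 stood apart from knockdown 1: 1564 genes were called in that line with it and 74 without it.

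The 9 genes were above all genes of Mac1. In control libraries Mac1 held the highest level of each of the 9, and the Mac1 controls lay above every control library of the line next in order. Levels of 1 CPM or more in at least 1 arm were found for 9 of the 9 genes in Mac1, 4 in MyLa, 3 in H9, 2 each in SUP-T1, MOLT4 and THP6, and 1 in CCRF-CEM. All 9 genes passed the filter on low counts, some of them, such as IL17A, through Mac1 alone, so a gene that was not called in another line was often a gene without reads there. Whether a level reflects the number of expressing cells or the RNA per cell cannot be told apart in bulk RNA.

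**Figure D1:**
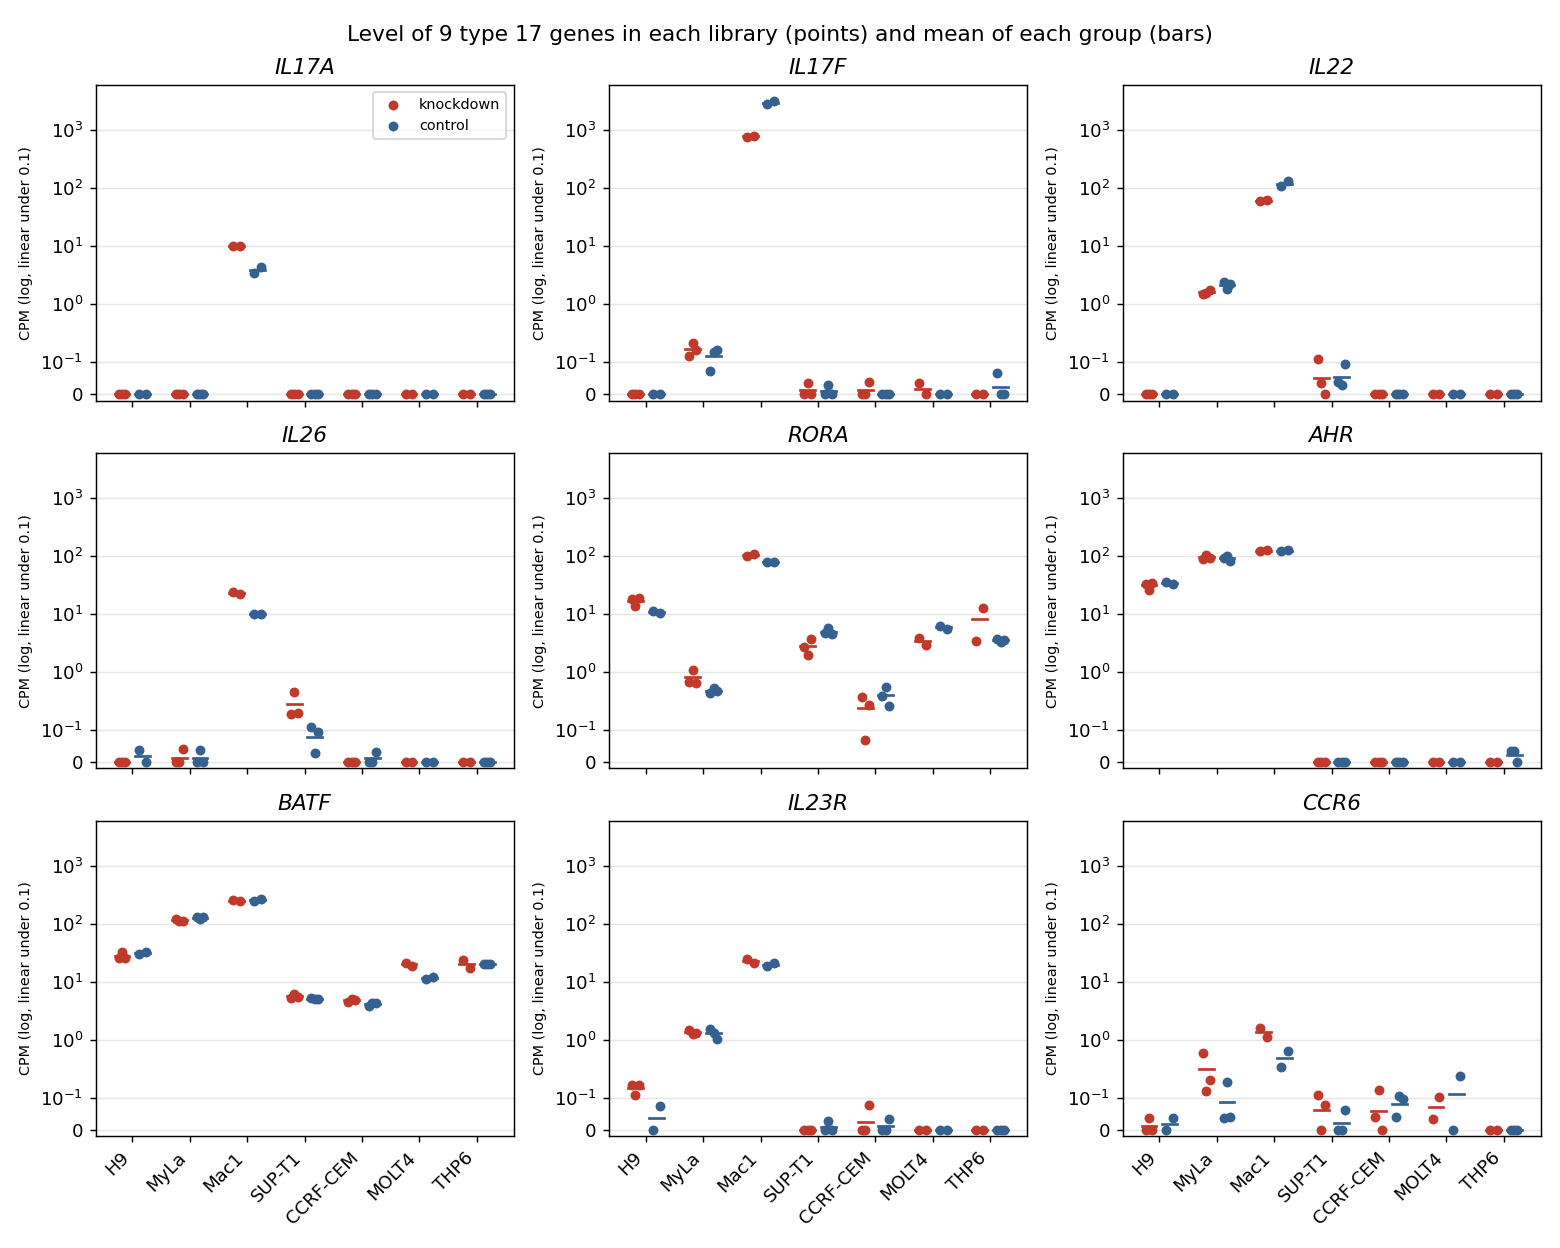
CPM of the 9 genes in each of the 36 libraries (points) with the mean of each group (bars), knockdown left of control in each line, on a log axis that is linear under 0.1 CPM. IL17A has points above 0 in Mac1 alone, AHR in the 3 CTCL lines and at 1 count in 2 THP6 control libraries, and BATF has points in all 7 lines.

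GATA3 knockdown in Mac1 was accompanied by opposite changes within both cytokine gene pairs. IL17F and IL22 were lower and IL17A and IL26 higher in knockdown cells, while the transcription factor and receptor genes of the list did not pass the threshold. With Mac1 fitted by itself, RORA (adjusted p = 0.0132) and CCR6 (adjusted p = 0.0316) also passed as higher. Of the 9 genes 4 passed an adjusted p of 0.05 in Mac1 (edgeR quasi-likelihood test, adjusted over 21138 genes), 2 in each direction. Among all tested genes 7.9% passed in Mac1, 5.54% higher and 2.36% lower. The median log2 fold change of the 9 genes was 0.21 and that of all tested genes 0.00. Tested genes without reads in Mac1 could not be called and enter that median as 0. The values of all genes are thus not those of the genes expressed in Mac1.

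IL17F, which encodes a secreted cytokine that pairs with itself or with interleukin 17A, had 766.5 and 786.6 CPM in the Mac1 knockdown libraries, against 2791 and 3153 CPM in the controls. The groups lay far apart, and the libraries within each were close. The means were 777 ± 14.2 CPM in knockdown and 2972 ± 256 CPM in control cells (SD, n = 2 each), a log2 fold change of -1.94 (SE 0.122, adjusted p = 1.08e-09). The gene ranked 190 among all genes by CPM in knockdown cells and 23 in controls. Its reads were 31505 of 50.63 M and 19605 of 30.2 M counts in the knockdown libraries. In the controls they were 83018 of 33.94 M and 90640 of 34.03 M counts. The call held without any one of the 4 libraries, with adjusted p up to 4.13e-07. Outside Mac1 IL17F was close to absent: 11 of 32 libraries held any count and the highest count was 5, in a MyLa knockdown library. MyLa held 12 counts in 3 knockdown and 10 in 3 control libraries.

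IL17A, the founding cytokine of the family, had 9.951 and 9.83 CPM in the Mac1 knockdown libraries, against 3.396 and 4.383 CPM in the controls. Both knockdown libraries were above both controls, and the level stayed low beside that of IL17F. Per kilobase of merged exon, IL17A stood at 5.29 CPM in knockdown cells and 2.08 CPM in controls, and IL17F at 728 CPM in knockdown cells and 2785 CPM in controls. The log2 fold change of IL17A was 1.35 (SE 0.285, adjusted p = 0.0246). That call was lost without any one of the 4 Mac1 libraries (adjusted p 0.0721 to 0.192) and in DESeq2 (adjusted p = 0.976). The 32 libraries of the other lines held 0 counts of IL17A. Taking 3 counts over each set of 16 libraries as the limit, Mac1 was at least about 1380-fold above their knockdown libraries. It was at least about 561-fold above their control libraries. These bounds are approximate, because the limit was scaled to library totals without the TMM factors.

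The balance of the pair differed between the groups. IL17F reads per IL17A read were 77 and 80 in the Mac1 knockdown libraries, against 822 and 719 in the controls, with means of 78.5 ± 2.12 in knockdown and 771 ± 72.5 in control libraries (SD, n = 2 each). The groups did not overlap, and the exact two-sided permutation p was 0.333, the smallest that 2 against 2 libraries allow. IL17A (ENSG00000112115, chr6:52186375-52190638, plus strand) and IL17F (ENSG00000112116, chr6:52236681-52244537, minus strand) lie 46.0 kb apart on GRCh38, and their transcripts share 0 words of 25 bases, so no exact stretch of that length could be counted to both. The windows before both start sites are shown because the genes are neighbours that moved apart in Mac1. They run from 250 to 51 bases before the RefSeq start on GRCh38.p14, in the direction of transcription, at chr6:52186125-52186324 (plus strand) and chr6:52244551-52244750 (minus strand). Capitals mark AGGTCA, the core of ROR binding sites, on either strand.

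IL17A: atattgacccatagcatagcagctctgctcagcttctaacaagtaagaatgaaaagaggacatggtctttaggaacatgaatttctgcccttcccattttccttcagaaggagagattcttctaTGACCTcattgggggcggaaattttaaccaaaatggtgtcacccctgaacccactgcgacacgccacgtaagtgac

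IL17F: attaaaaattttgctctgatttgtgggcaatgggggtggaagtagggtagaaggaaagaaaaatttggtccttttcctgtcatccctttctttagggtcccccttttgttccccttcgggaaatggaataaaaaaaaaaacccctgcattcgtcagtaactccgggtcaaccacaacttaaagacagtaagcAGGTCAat

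The ROR core starts 126 bases before the IL17A start, as its complement TGACCT, and 58 bases before the IL17F start. It was found on either strand in 12.1% of 35116 windows of 250 bases before human gene starts. A GATA motif was any of 4 words searched on both strands. The words AGATAA or TGATAA, and likewise the words AGATAG or TGATAG, were in neither window, and 22.3% of all windows held at least 1 of them. The AHR core GCGTG was found once before IL17A, 67 bases from the start, and not before IL17F, with 32.2% of all windows holding it. Neither window held the STAT motif TTCNNNGAA or the AP-1 motif TGANTCA, each of which was in 6.6% of all windows. These are matches of letters and not measured sites.

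IL22, whose product acts on epithelial cells, had 60.56 and 61.03 CPM in Mac1 knockdown libraries, against 106.8 and 129.6 CPM in controls. The groups did not overlap, and the knockdown libraries were the lower. The log2 fold change was -0.96 (SE 0.160, adjusted p = 0.000964), and the call held without any one library (adjusted p 0.00809 to 0.0405). MyLa was the other line with IL22 above 1 CPM, at 1.483, 1.552 and 1.761 CPM in knockdown libraries and 2.343, 1.838 and 2.202 CPM in controls. These groups did not overlap either, but the difference did not pass the threshold (log2 fold change -0.41, SE 0.198, adjusted p = 0.479).

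IL26, a cytokine gene with no mouse counterpart, had 23.77 and 22.19 CPM in Mac1 knockdown libraries, against 9.851 and 9.809 CPM in controls. The libraries within each group were close together and the groups were apart (23.0 ± 1.12 CPM in knockdown and 9.83 ± 0.0299 CPM in control cells, SD, n = 2 each). The log2 fold change was 1.23 (SE 0.275, adjusted p = 0.00782). The call was lost without control 1, control 2 or knockdown 1 (adjusted p up to 0.0863). IL22 reads per IL26 read were 2.55 and 2.75 in knockdown libraries and 10.8 and 13.2 in controls, again without overlap (exact two-sided permutation p = 0.333, the smallest possible). In SUP-T1 IL26 had 5, 13 and 5 counts in the libraries labelled knockdown and 3, 1 and 3 in those labelled control, all under 0.5 CPM. It passed the threshold there (log2 fold change 1.86, SE 0.566, adjusted p = 0.0280), and lost the call without control 2, control 3 or knockdown 2 (adjusted p up to 0.204) and with replicate number as a block.

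IL26 (ENSG00000111536, chr12:68201351-68225821) and IL22 (ENSG00000127318, chr12:68248242-68253604) lie 22.4 kb apart on the minus strand of GRCh38. The window before IL26 is shown because it held a GATA motif, unlike those of IL17A and IL17F; IL22 had no entry in the RefSeq table of starts. It runs from 250 to 51 bases before the start at chr12:68225861-68226060, minus strand, and capitals mark the GATA motif on either strand, which starts 248 and 76 bases before the start.

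IL26: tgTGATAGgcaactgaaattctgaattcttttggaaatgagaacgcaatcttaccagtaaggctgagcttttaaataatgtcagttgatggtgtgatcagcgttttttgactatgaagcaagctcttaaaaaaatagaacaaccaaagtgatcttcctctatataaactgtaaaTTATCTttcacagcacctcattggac

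No ROR, AHR, STAT or AP-1 letters were found before IL26. Of the other members, BATF held the GATA motif 205 bases before its start and the AHR core 48 and 13 bases before it. CCR6 has 3 listed starts, and its windows held a GATA match, a ROR match and 3 STAT matches in all. RORA and AHR, with 1 window each, held none of the motifs. The bases 250 to 51 before their listed starts are chr15:60627581-60627780 (RORA) and chr7:17298402-17298601 (AHR). Both lie inside the gene as annotated (chr15:60488284-61229319, minus strand, and chr7:16916359-17346152, plus strand), so starts at the outer ends were not searched. Starts were listed for 7 of the 9 genes.

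**Figure D2:**
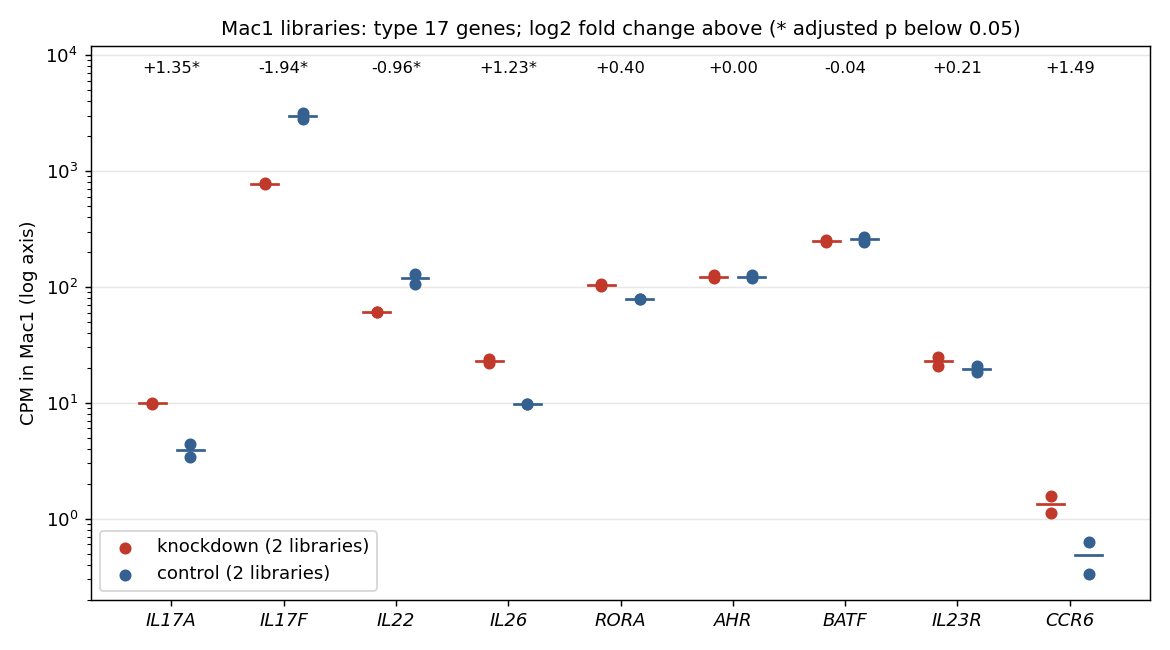
CPM of the 9 genes in the 2 knockdown (left) and 2 control (right) Mac1 libraries on a log axis, with bars at the means and the log2 fold change above each gene (asterisk: adjusted p below 0.05). IL17F and IL22 are lower and IL17A and IL26 higher in knockdown libraries, and AHR and BATF lie at the same height in both groups.

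Apart from the pairs themselves, 1 of 7 tested neighbours of IL17F and 0 of 11 of IL26 were called in Mac1, where 7.9% of all tested genes were. Within 500 kb of IL17F 19 genes are annotated, 9 of which were tested and 3 called: IL17A, IL17F and PAQR8, a progestin and adipoQ receptor family gene (28.9 ± 2.32 CPM in knockdown, 16.2 ± 1.53 in control cells, log2 fold change 0.83, adjusted p = 6.09e-06). MCM3, a replicative helicase subunit gene 19.5 kb from IL17F, stood at 606 ± 2.44 CPM in knockdown and 616 ± 8.01 CPM in control cells (log2 fold change -0.02, adjusted p = 0.936). Within 500 kb of IL26 27 genes are annotated, 13 of which were tested and 2 called, IL26 and IL22. IFNG, the interferon gamma gene 41.6 kb from IL26, had 14.1 ± 0.163 CPM in knockdown and 8.49 ± 1.03 CPM in control cells and did not pass (log2 fold change 0.73, adjusted p = 0.0970).

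**Figure D3:**
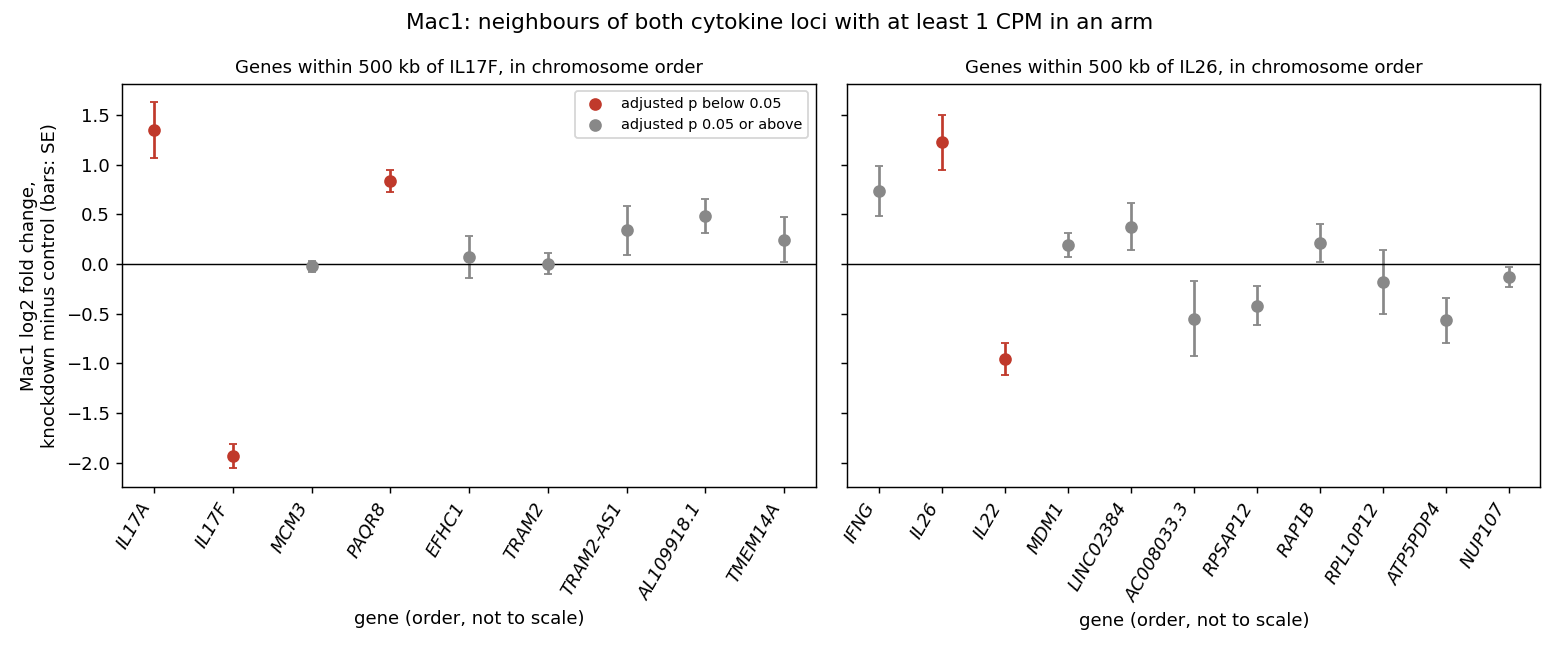
Log2 fold change of knockdown minus control in Mac1 (points, bars: SE) for genes with at least 1 CPM in an arm within 500 kb of IL17F (left) and IL26 (right), in chromosome order. IL17A and IL17F, and IL26 and IL22, are neighbours on opposite sides of 0, and MCM3 next to IL17F lies at -0.02.

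The 3 transcription factor genes of the list did not pass the threshold in Mac1 when all lines were fitted together. AHR, the ligand-activated factor that promotes IL22 transcription, had 119.3 and 126.3 CPM in knockdown libraries and 119.3 and 125.7 CPM in controls (log2 fold change 0.00, SE 0.128, adjusted p = 1). BATF, the AP-1 family factor that Th17 cells require, had 253.5 and 245 CPM in knockdown libraries and 246.3 and 267.1 CPM in controls (log2 fold change -0.04, SE 0.109, adjusted p = 0.939). Both pairs of groups overlapped. RORA had 100.9 and 105.9 CPM in knockdown libraries and 78.78 and 77.85 CPM in controls, with no overlap but no call (log2 fold change 0.40, SE 0.271, adjusted p = 0.434).

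The receptor genes did not pass in Mac1 in that fit either. IL23R, the subunit specific to the interleukin 23 receptor, had 24.6 and 20.82 CPM in knockdown libraries and 18.59 and 20.63 CPM in controls (log2 fold change 0.21, SE 0.241, adjusted p = 0.688). CCR6, the chemokine receptor that marks Th17 cells in blood, had 1.557 and 1.123 CPM in knockdown libraries and 0.3362 and 0.6261 CPM in controls. Its groups did not overlap, yet the difference was not called (log2 fold change 1.49, SE 0.653, adjusted p = 0.188). Among the markers, CD247 and TRAC passed as higher in Mac1 knockdown cells, and the sum of 11 T cell markers was 301 to 320 CPM in knockdown and 260 to 268 CPM in control libraries. Of 12 markers of other cell types 8 were tested and COL1A1 was called, as higher. Their sum was 57.9 to 62.0 CPM in Mac1 knockdown and 37.2 to 42.0 CPM in control libraries. Most of it was CSF1R, at 55.69 and 59.58 CPM in knockdown and 36.35 and 40.8 CPM in control libraries, without a call. Markers at 0 counts in both groups included MS4A1, COL1A2, DCN, EPCAM and KRT18. The mitochondrial share of counts was 0.796% and 0.626% in knockdown and 1.06% and 1.23% in control libraries. The part of any of these in the cytokine differences was not tested.

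In the other 6 lines the called members were RORA, BATF and, at a few reads, IL26 in SUP-T1. In H9, MyLa and CCRF-CEM 0 of the 9 genes were called by edgeR and 0 by DESeq2. Among all tested genes edgeR called 1.82% in H9 (0.852% higher and 0.965% lower), 1.88% in MyLa (1.02% higher, 0.861% lower) and 8.44% in CCRF-CEM (3% higher, 5.44% lower). At an unadjusted p under 0.05 these lines had 2 (RORA and IL23R), 1 (CCR6) and 0 genes. In SUP-T1 2 members were called, 1 in each direction, against 16.7% of all tested genes (8.14% higher, 8.57% lower, by label). MOLT4 had 1 member called, higher in knockdown cells, against 19.2% of all tested genes (8.88% higher, 10.3% lower). THP6 had 1 member called, also higher, against 7.4% (5.56% higher, 1.84% lower). Outside Mac1 the counts of members called, out of 9, are near or below these shares of all genes. Members without reads could not be called, so this is no result about those that are expressed. Members at 1 CPM or more in an arm numbered 2 each in SUP-T1, MOLT4 and THP6.

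BATF was expressed in all 7 lines and was called in MOLT4 alone. It had 20.79 and 18.85 CPM in MOLT4 knockdown libraries, against 11.23 and 12.27 CPM in controls, without overlap (log2 fold change 0.75, SE 0.122, adjusted p = 3.59e-05). The call held without any one MOLT4 library (adjusted p up to 0.00355). In the other 6 lines its log2 fold change lay between -0.16 (H9) and 0.22 (CCRF-CEM). In MOLT4 6 of 11 T cell markers were higher in knockdown cells, among them CD3D, CD7 and LCK, and 1 was lower, with a sum of 4519 to 4788 CPM in knockdown and 4031 to 4262 CPM in control libraries; their part in the BATF difference was not tested.

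RORA was called in SUP-T1 and THP6, lower and higher by label. The sign in SUP-T1 holds by label only: the libraries labelled knockdown had less RORA and more GATA3. Knockdown libraries of H9, MyLa (under 1 CPM), Mac1 and THP6 averaged more RORA and less GATA3. Those of MOLT4 and CCRF-CEM averaged less RORA and less GATA3 (RORA in CCRF-CEM 0.233 CPM in knockdown, 0.394 in control libraries). In SUP-T1 RORA had 2.636, 1.972 and 3.657 CPM in the libraries labelled knockdown and 4.581, 5.651 and 4.424 CPM in those labelled control. The groups did not overlap (log2 fold change -0.84, SE 0.289, adjusted p = 0.0440), but the call was lost without any one of 5 of the 6 libraries, all but knockdown 3, and with replicate number as a block (adjusted p up to 0.211 over these fits). In the same libraries 6 of 11 T cell markers were called lower (CD3D, CD3E, TRAC, CD5, CD7 and LCK) and CD247 higher, with a sum of 3658 to 4065 CPM in those labelled knockdown and 4669 to 4959 CPM in those labelled control. Their part in the RORA difference was not tested. In THP6 the knockdown libraries had 3.433 and 12.59 CPM, against 3.674, 3.241 and 3.525 CPM in controls. Knockdown 1 lay among the controls, and the called difference (log2 fold change 1.20, SE 0.299, adjusted p = 0.0129) rested on knockdown 2 (log2 fold change -0.02 without it, adjusted p = 1). It was also lost without control 2. In MOLT4 RORA had 3.831 and 2.851 CPM in knockdown and 6.156 and 5.523 CPM in control libraries without passing (log2 fold change -0.80, SE 0.340, adjusted p = 0.103). In H9 it had 18.04, 13.46 and 18.66 CPM in knockdown and 11.19 and 10.18 CPM in control libraries, again without passing (log2 fold change 0.64, SE 0.274, adjusted p = 0.336). Exons of RORA overlap 5 annotated genes, 4 of them on the opposite strand, and exons of AHR overlap 2; the labels do not name a strand setting, so reads of such partners cannot be told apart.

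**Figure D4:**
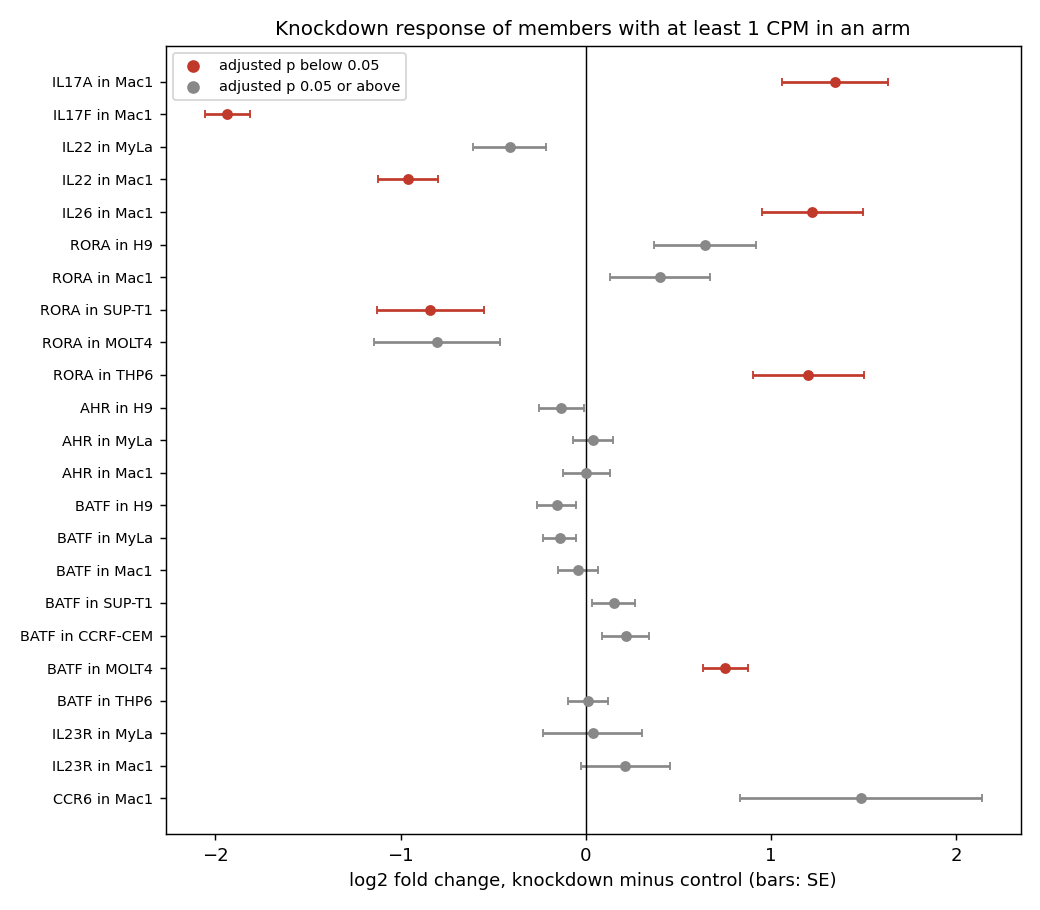
Log2 fold change of knockdown minus control (points, bars: SE) for each of the 9 genes in each line where an arm held at least 1 CPM, red where the adjusted p was below 0.05. The cytokine genes of Mac1 lie on both sides of 0, RORA lies on both sides between lines (SUP-T1 by label), and BATF stands away from 0 in MOLT4.

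The responses of IL17F (adjusted p = 0.0235), RORA (adjusted p = 0.00167) and BATF (adjusted p = 0.000700) differed between the 7 lines in a test of equal response. These 3 of 9 genes stand beside 35.2% of all tested genes. Lines without reads add nothing to this test, and IL17A had a p of 1 in it for that reason. The same 3 genes passed without SUP-T1. RORA and BATF passed without any one library. IL17F lost the call without MyLa knockdown 2 (adjusted p = 0.0806) or knockdown 3 (adjusted p = 0.0540), so its difference between lines rests on the few reads of MyLa. A mean response over the lines could be tested for RORA (log2 fold change 0.13, SE 0.254) and BATF (0.10, SE 0.103), and both had an adjusted p of 1. In that test 0 of 17382 genes (0%) were called, and neither gene had an unadjusted p under 0.05; DESeq2 was not run on it.

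In control cells AHR was found in the CTCL lines and next to absent in the T-ALL lines. It stood at 122 ± 4.59 CPM in Mac1, 91.6 ± 9.15 in MyLa and 33.9 ± 1.78 in H9, and these lines did not overlap. All 15 CTCL libraries, knockdown ones included, held 25.3 CPM or more, while 19 of the 21 T-ALL libraries held 0 counts and the other 2 held 1 each. With controls summed per line, 3 CTCL lines against 4 T-ALL lines, AHR was the called gene among the 9 (adjusted p = 0.0134), where 0.205% of 18565 genes were called higher in CTCL and 0.28% in either direction. The call was lost without MyLa (adjusted p = 0.0555), Mac1 (0.0564) or THP6 (0.0811). BATF (log2 difference 3.78, SE 0.841, adjusted p = 0.138) and RORA (3.06, SE 1.48, adjusted p = 0.424) were not called, and the other members did not pass the filter of that test.

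BATF control levels formed a ladder in which no neighbouring lines overlapped: 257 CPM in Mac1, 127 in MyLa, 31.2 in H9, 20.4 in THP6, 11.7 in MOLT4, 5.09 in SUP-T1 and 4.10 in CCRF-CEM. The order of RORA was another one: 78.3 CPM in Mac1, 10.7 in H9, 5.84 in MOLT4, 4.89 in SUP-T1, 3.48 in THP6, 0.473 in MyLa and 0.394 in CCRF-CEM. MOLT4 overlapped SUP-T1, and MyLa overlapped CCRF-CEM. IL23R stood at 19.6 CPM in Mac1 and at 1.55, 1.323 and 1.022 CPM in the MyLa controls, and the controls of each other line held at most 2 counts.

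Regulators of the Th17 programme other than the 9 genes were followed in a list of 18, all tested. The share of them called, in either direction, was 5.56% in H9, against 1.82% of all tested genes, 5.56% in MyLa (all genes 1.88%) and 22.2% in Mac1 (all genes 7.9%). THP6 had 22.2% (all genes 7.4%), MOLT4 44.4% (19.2%), SUP-T1 33.3% (16.7%) and CCRF-CEM 27.8% (8.44%). Among CTCL lines, H9 and MyLa had 1 called higher each and 0 lower, and Mac1 had 3 higher and 1 lower. Among T-ALL lines, MOLT4 had 4 higher and 4 lower, THP6 had 4 higher and 0 lower, SUP-T1 had 2 higher and 4 lower, and CCRF-CEM had 3 higher and 2 lower. The median log2 fold change of the list ran from -0.18 (MOLT4) to 0.21 (Mac1), and that of all tested genes was 0.00 in each line. The all-gene shares, here and for the lists that follow, include tested genes without reads in a line, which could not be called. The filter applied to Mac1 by itself kept 15237 genes, against 21138 over all lines. Genes without reads also enter the median of all genes as 0. Whether a list differs in share from all genes was not tested. In Mac1 knockdown cells STAT3, the factor downstream of interleukins 6, 21 and 23, was higher at 943 ± 75.2 CPM, against 718 ± 66.4 in controls (adjusted p = 0.00502). That call was lost without control 1 or knockdown 2 (adjusted p up to 0.110). IRF4, which acts with BATF, was higher at 1029 ± 86.9 CPM in Mac1 knockdown cells, against 628 ± 13.3 in controls (adjusted p = 2.84e-05). ID2, an inhibitor of E proteins, was called higher in 4 lines: H9 (4.32 CPM in knockdown, 1.89 in control cells), Mac1 (31.7 in knockdown, 18.2 in control cells), CCRF-CEM (1.58 in knockdown, 0.696 in control cells) and MOLT4 (3.38 in knockdown, 0.807 in control cells). In MOLT4 STAT3 was lower at 261 ± 10.6 CPM in knockdown cells, against 471 ± 15.7 in controls (adjusted p = 3.48e-08). In THP6 the 4 called regulators included FOSL2 and BHLHE40, whose SD between knockdown libraries was as large as the mean (145 ± 146 CPM for FOSL2); both calls were lost without knockdown 2.

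A further list of 14 held genes for receptors and signalling that induce the programme, and the feedback inhibitor gene SOCS3. Of these 14 genes, 1 was called higher in each line other than H9, where 0 were. In Mac1 the called gene was SOCS3. Those called lower were 2 each in SUP-T1 and MOLT4, 1 each in H9 and CCRF-CEM, and 0 in MyLa, Mac1 and THP6, and the list's median ran from -0.19 (MOLT4) to 0.13 (SUP-T1). These are 7.14% of the list in H9, MyLa, Mac1 and THP6, 14.3% in CCRF-CEM and 21.4% in SUP-T1 and MOLT4, shares that in Mac1, SUP-T1, MOLT4 and THP6 were near those of all genes. SOCS3, the feedback inhibitor of STAT3 signalling, was higher in Mac1 at 1457 ± 30.9 CPM in knockdown cells, against 804 ± 68.4 in controls (adjusted p = 1.32e-05). SOCS3 was lower in the SUP-T1 libraries labelled knockdown at 4.55 ± 0.222 CPM, against 8.10 ± 0.572 in those labelled control. IL12RB1, the shared subunit of the interleukin 12 and 23 receptors, was higher in MyLa at 27.0 ± 0.837 CPM in knockdown cells, against 14.9 ± 1.28 in controls (n = 3 each, adjusted p = 5.56e-07). IL21R was lower in CCRF-CEM at 40.1 ± 3.08 CPM in knockdown cells, against 93.0 ± 5.61 in controls (n = 3 each, adjusted p = 7.35e-07).

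Of 12 other products of Th17 cells 9 were tested. Called higher were 3 in MOLT4, 2 each in MyLa and Mac1, 1 each in SUP-T1 and CCRF-CEM, and 0 in H9 and THP6. Called lower were 2 in SUP-T1, 1 each in Mac1, MOLT4 and CCRF-CEM, and 0 in the other lines, and the list's median ran from -0.07 (CCRF-CEM) to 0.63 (MOLT4). The share called was 0% in H9 and THP6, 22.2% in MyLa and CCRF-CEM, 33.3% in Mac1 and SUP-T1 and 44.4% in MOLT4, beside the shares of all genes given above. TNF was called higher in 3 lines: Mac1 (1.25 ± 0.219 CPM in knockdown and 0.221 ± 0.0672 in control cells), CCRF-CEM (2.49 ± 0.482 CPM in knockdown and 0.540 ± 0.205 in control cells) and MOLT4, where 39 counts were found in knockdown and 0 in control libraries. IL4I1, an amino acid oxidase gene of Th17 cells, was higher in MyLa (6.64 ± 0.400 CPM in knockdown, 2.31 ± 0.282 in control cells) and Mac1 (408 ± 63.1 CPM in knockdown, 227 ± 28.4 in control cells). CXCR6, a chemokine receptor gene, was higher in MOLT4 at 14.5 ± 1.58 CPM in knockdown cells, against 0.521 ± 0.129 in controls (n = 2 each, adjusted p = 1.24e-10). IL9 was higher in MyLa at 40.3 ± 0.238 CPM in knockdown cells, against 19.6 ± 0.778 in controls (n = 3 each, adjusted p = 0.00500).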

How the data were processed

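The values are expected counts per gene in 36 RNA-seq libraries that the authors deposited; per the submitters' processing notes, cutadapt 2.3, STAR 2.7.8a, RSEM 1.3.3 and GRCh38 are named. All values were whole as deposited. No annotation release or strand setting is named there; GENCODE 29, which holds 96.5% of the 60628 identifiers, gave coordinates and overlaps. Groups came from the titles and labels (14 groups of line and arm).

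All libraries entered a single edgeR 4.0.16 model (R 4.3.3) of 14 group means, with TMM scaling, filterByExpr and quasi-likelihood F tests, with Benjamini-Hochberg adjustment over all tested genes and a threshold of 0.05. The same tool tested equal response over lines, a mean response on sums per line and arm, and summed controls of 3 CTCL against 4 T-ALL lines. The tests were also run on simulated counts. Ratios of reads were compared by an exact permutation test, and bounds from 0 counts cover counting error only. Alternatives were DESeq2 1.42.0, DESeq2 size factors, 2 other filters, a fit per line, a replicate block, leaving out libraries or lines in turn, and a minimum log2 fold change of 1. To see whether replicate numbers pair libraries, residuals of same-numbered libraries were correlated; the 17 values ran from -0.0596 to 0.0937, none above 0.1, so libraries were not paired. No replicates were identical (30 pairs compared).

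The members, gene lists and tests were chosen with earlier results of these data known. Named were all members and, per list and line, up to 3 called genes with the lowest adjusted p and at least 5 CPM in an arm, and genes called the same way in at least 3 lines. The symbol AHRR is carried by 2 identifiers, and the one with more counts was used. Some genes that these rules name are not reported here. Start windows are from RefSeq. Python 3.11.15, numpy 2.4.6, pandas 2.3.3, scipy 1.17.1 and matplotlib 3.10.9 were used.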

Additional observations from a re-analysis of the deposited data

Results flagged for a closer look

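The knockdown response differed between the 7 lines, by the test of equal response in all lines, for 4 of the genes followed. IL17F (adjusted p = 0.0235) responded with a log2 fold change of -1.94 in Mac1, the line that holds nearly all its reads. Its difference between lines rests on 12 knockdown and 10 control counts in MyLa: the adjusted p was 0.0806 without MyLa knockdown 2 and 0.0540 without knockdown 3. RORA (adjusted p = 0.00167) ran from -0.80 in MOLT4 to 1.20 in THP6, where the value rests on knockdown 2, over the 6 lines with less GATA3 in knockdown cells. In SUP-T1 it was -0.84 by label, with more GATA3 in the libraries labelled knockdown. BATF (adjusted p = 0.0007) ran from -0.16 in H9 to 0.75 in MOLT4. GATA3 itself (adjusted p = 2.9e-16) ran from -1.45 in MOLT4 to 1.76 in SUP-T1, where its direction goes against the labels.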

How the results depend on the processing

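Groups hold 2 or 3 libraries, and members under 1 CPM rest on few counts. Of 283 recomputed values of the members in lines where they were measured or called, 243 kept direction and side of the threshold, 24 lost the threshold, 5 gained it and 11 changed sign. Of these 10 were of differences near 0 that were not called, most of them on leaving out 1 library: IL23R in MyLa (-0.10 to 0.19), AHR in MyLa (-0.0354 to 0.10), AHR in Mac1 (-0.0103 to 0.0696, and -0.0368 in a separate fit), BATF in Mac1 (-0.0733 to 0.0431) and BATF in THP6 (-0.25 to 0.24). The other was the called RORA in THP6, whose log2 fold change ran from -0.0173 (without knockdown 2) to 1.86 (without knockdown 1). The mean response over lines, also not called, turned to -0.0644 for RORA without THP6 and to -0.0013 for BATF without MOLT4. The regulator BHLHE40 in THP6 likewise ran from -0.19 to 3.30. The number of members called ranged, leaving out 1 library at a time, from 2 to 3 in Mac1, from 0 to 2 in SUP-T1 and from 0 to 1 in THP6. Without a filter it was 1 in H9 (RORA) and 2 in MOLT4 (BATF and RORA). In separate fits of each line it was 6 in Mac1 (CCR6 and RORA joining the 4), 1 in SUP-T1, 2 in MOLT4 and 0 in THP6. With an absolute log2 fold change of at least 1 it was 1 in SUP-T1 and 0 in MOLT4. With the replicate block, for which the numbers gave no sign of pairing, it was 0 in SUP-T1 and 0 in THP6, and the block changed no other member count. Members called between classes were 2 without H9 (AHR and IL23R) and 0 without MyLa, Mac1 or THP6. Members whose response differed between lines were 2 without MyLa knockdown 2 or 3 (IL17F lost) and 3 in the other fits. The causes were not tested. Over all genes, calls in THP6 were 1564, against 472 with the block, 0 in a separate fit and 74 without knockdown 2. In MyLa they were 397, against 1404 in a separate fit. Size factors from DESeq2 moved the median log2 fold change of all genes by -0.00832 in MOLT4. In the other lines the median stayed at 0.00 under both scalings, so it does not show the size of the shift. Single genes did move there: GATA3 went from -1.252 to -1.267 in H9 and from -0.716 to -0.7067 in MyLa.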

Other observations

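Of 7 genes of the AHR axis (partners and targets), 0 were called in H9, MyLa and Mac1, the lines that express AHR, where 1.82%, 1.88% and 7.9% of all tested genes were called; at these shares a count of 0 among 7 genes is no result about the axis. The T-ALL lines had calls in TIPARP (lower in the SUP-T1 libraries labelled knockdown) and in ARNT (higher) in THP6. MOLT4 had CYP1A1 and CYP1B1 (lower) and NQO1 (higher), and CCRF-CEM had 0. These are 42.9% of the list in MOLT4 (all genes 19.2%), 14.3% in SUP-T1 (16.7%), 14.3% in THP6 (7.4%) and 0% in CCRF-CEM (8.44%). The NQO1 call was lost without any one MOLT4 library (adjusted p up to 0.291), and the ARNT call without any one THP6 control or without knockdown 2, where its log2 fold change was 0.09 against 0.28 with all libraries. CYP1B1 in MOLT4 stood at 5.99 ± 0.631 CPM in knockdown and 11.4 ± 0.101 CPM in control cells (n = 2 each, adjusted p = 2.52e-05) with 0 AHR counts in all 4 libraries.

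Receptors and relatives of interleukin 17 and 22 numbered 15, 10 of them tested. Called were 6 in MOLT4, 3 in SUP-T1, 2 in CCRF-CEM, 1 in Mac1 and 0 in H9, MyLa and THP6, beside 19.2% of all tested genes in MOLT4, 16.7% in SUP-T1, 8.44% in CCRF-CEM and 7.9% in Mac1. IL17RA, the shared receptor subunit, was higher in CCRF-CEM (140 ± 1.82 CPM in knockdown, 107 ± 11.9 in control cells, not called without control 1) and lower in MOLT4 (27.3 ± 0.513 CPM in knockdown, 43.8 ± 2.69 in control cells). TRAF3IP2, the adaptor of that receptor, was lower in CCRF-CEM at 11.9 ± 1.38 CPM in knockdown cells, against 31.4 ± 2.57 in controls (n = 3 each, adjusted p = 0.000621). Of 14 tested genes of other T helper lineages, 3 were called in H9 (lower) and 1 in MOLT4 (higher). MyLa and Mac1 had 2 called each (higher), as had SUP-T1 (higher by label), THP6 and CCRF-CEM (both lower). The H9 share was 21.4% of the list, against 1.82% of all tested genes. A share of 14.3% was above that of all genes in MyLa (1.88%), THP6 (7.4%), Mac1 (7.9%) and CCRF-CEM (8.44%). The same 14.3% was below that of all genes in SUP-T1 (16.7%), and so was 7.14% in MOLT4 (19.2%). These differences in share were not tested. In CCRF-CEM the call of IKZF2 (lower, adjusted p = 0.0430) was lost without any one of the 6 libraries (adjusted p up to 0.156). In THP6 the log2 fold change of EOMES was -0.72 with all libraries and -0.37 without knockdown 2. CCR4, a chemokine receptor gene of T helper 2 cells, was lower in H9 (39.8 ± 2.07 CPM in knockdown, 74.3 ± 1.16 in control cells) and in CCRF-CEM (15.8 ± 2.91 CPM in knockdown, 70.8 ± 4.56 in control cells, log2 fold change -2.17, adjusted p = 7.28e-13). CCR8 was called lower in H9 and THP6 and higher in MyLa and, by label, in SUP-T1, and its H9 call was lost without any one H9 library (adjusted p up to 0.373). In Mac1 IL2RA was called (adjusted p = 0.0318), but not without any one Mac1 library (adjusted p up to 0.231) or with the replicate block (adjusted p = 0.0927).

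The genes most like each member over the 36 libraries (log2 of CPM plus 0.5, 13959 genes compared) were mainly genes of Mac1, and points of a line share that line. For IL17A they were TRIM29, KCNE3 and GZMB (r = 0.997 each), for IL17F THRB, NRG1 and SOX2 (0.998 to 0.999), and for IL26 AL022067.1, DKK2 and ANXA10 (0.991 to 0.992). MYOF, IL1R1 and GNAI1 came out for both IL22 and IL23R (0.993 to 0.996). For AHR they were HLA-DPA1, AC015911.10 and CD74 (0.997 each), for BATF SQOR and ARID5A (0.983 to 0.986), and for RORA ARHGEF40, CHSY1 and TLE3 (0.920 to 0.953).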
